A study of Homo sapiens with 10 samples.

Results

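H3K27ac was compared between C4-2BER and C4-2B cells through the pooled peak list of each line, 72971 peaks for C4-2BER and 68034 for C4-2B out of 537404 peaks in the 4 lists of the series. The C4-2B line descends from LNCaP and is a castration-resistant adenocarcinoma of the prostate. C4-2BER was derived from it by continuous exposure to the antiandrogen enzalutamide and is labelled as a neuroendocrine-like prostate line. Chromatin of both lines was fixed with disuccinimidyl glutarate and formaldehyde, and 2 H3K27ac libraries per line were merged before peaks were called, with 1 input library per line. Each condition is therefore 1 derived line with 1 list, no replicate spread is left in the files, and every difference below is a description of these lists without a test between the lines. The study asked how histone acetylation changed when adenocarcinoma cells became neuroendocrine-like.

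Peaks that shared at least 1 bp were merged, which gave 89877 regions on GRCh38. Of these, 26195 held a peak of C4-2BER only, 18251 a peak of C4-2B only and 45431 peaks of both lines. The 44446 regions of the first 2 classes are called line-specific here. All 8 prostate epithelial markers examined, among them KLK3, KLK2, FOLH1, HOXB13, FOXA1, KRT8 and KRT18, carried a peak at a transcription start site (TSS) in both lines. Of 5 blood cell markers, 3, with PTPRC and CD3E among them, had no TSS peak in either line, and CD14 and SPI1 had weak ones in C4-2BER, with fold enrichments of 2.40 and 2.30.

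H3K27ac is the acetylation of lysine 27 of histone H3. It is placed mainly by the acetyltransferases p300 and CBP and marks promoters and enhancers in use, so that a wide or dense run of peaks usually accompanies genes that a cell type expresses strongly. In prostate cells FOXA1 and HOXB13 bind many of the marked enhancers, and neuroendocrine differentiation is known to redistribute the mark among enhancers. Whether any region below regulates a named gene was not measured.

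The sequences below are the central 300 bases of the most enriched C4-2BER-only region and the most enriched C4-2B-only region, followed by the most enriched region of the C4-2BER-only cluster with most sequence, to which the results return. All are written for the plus strand of GRCh38. Capitals mark matches on either strand to 15 short motifs and to the letters CTGAGGCA, which recur in Alu repeats. The motifs were forkhead TGTTTNC, AP-1 TGANTCA, the E-boxes CAGCTG and CAGATG, the GATA factor motif AGATAA, the steroid receptor half-site AGAACA, HOXB13 CAATAAA, ETS CCGGAA, SP and KLF GGGCGG, CRE TGACGTCA, TEAD GGAATG, SOX ACAAAG, octamer ATGCAAAT, NRF1 GCGCATGCG and RUNX TGTGGT, and where matches overlapped they run together as 1 stretch of capitals.
DAB1, intron 1, C4-2BER only, chr1:57423380-57423679: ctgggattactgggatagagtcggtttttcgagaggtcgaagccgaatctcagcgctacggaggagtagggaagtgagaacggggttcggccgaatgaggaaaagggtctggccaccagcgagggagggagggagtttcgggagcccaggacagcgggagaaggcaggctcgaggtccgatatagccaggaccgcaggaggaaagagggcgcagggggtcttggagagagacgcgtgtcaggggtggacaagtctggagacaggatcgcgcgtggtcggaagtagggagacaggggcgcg
GRIN3A, exon 1, C4-2B only, chr9:101737834-101738133: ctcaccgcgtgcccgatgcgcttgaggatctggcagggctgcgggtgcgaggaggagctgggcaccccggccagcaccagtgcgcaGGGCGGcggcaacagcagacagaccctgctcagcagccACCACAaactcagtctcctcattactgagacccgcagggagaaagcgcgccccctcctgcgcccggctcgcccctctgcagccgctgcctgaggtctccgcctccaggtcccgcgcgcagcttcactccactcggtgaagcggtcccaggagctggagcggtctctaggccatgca
COBL, intron 5, C4-2BER only, chr7:51142073-51142372: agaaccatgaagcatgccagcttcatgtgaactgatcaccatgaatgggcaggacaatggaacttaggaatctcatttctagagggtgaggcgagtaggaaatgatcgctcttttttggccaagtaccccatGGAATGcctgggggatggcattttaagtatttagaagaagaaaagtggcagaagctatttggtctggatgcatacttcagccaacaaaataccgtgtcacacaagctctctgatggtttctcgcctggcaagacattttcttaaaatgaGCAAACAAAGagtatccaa

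The DAB1 and GRIN3A stretches lay 530 and 663 bp downstream of the TSS and had a GC content of 62.0% and 69.0%. The DAB1 stretch held no match, and the GRIN3A stretch held an SP and KLF motif and a RUNX motif. The COBL stretch held a TEAD motif and, apart from it, a forkhead motif that overlapped a SOX motif. A match is a description of the letters and not a bound site.

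Line-specific regions were weak and narrow beside the shared ones. The median width was 642 bp in the C4-2BER-only class, 521 bp in the C4-2B-only class and 2033 bp in the shared class. Regions over 2000 bp wide made up 6.16% of C4-2BER-only, 3.98% of C4-2B-only and 50.7% of shared regions. The C4-2BER-only share of line-specific regions rose with width, from 54.1% of those up to 500 bp to 68.9% of those over 2000 and up to 5000 bp. Height, as the fold enrichment that the peak caller gave over local background, behaved differently. Both line-specific classes had close medians, 2.52 in the C4-2BER-only and 2.59 in the C4-2B-only class. At a fold enrichment of at least 10 only 18 C4-2BER-only regions remained against 45 C4-2B-only regions, so the order of the classes was turned among the highest regions. High fold enrichments were also fewer in C4-2BER among shared regions, where 10376 reached 10 in C4-2BER and 12192 in C4-2B. Their 90th percentiles were 14.4 and 20.9, and their medians 4.82 and 4.73. The turn is therefore not particular to the line-specific classes.

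Shared regions were also unequal. C4-2BER covered more bp than C4-2B in 69.2% of them, with a median ratio of 1.15. At least 2 times the bp of C4-2B was covered by C4-2BER in 17.6% of shared regions, and the opposite held in 6.40%. In all, 54.9 Mb were covered by the C4-2BER list alone, of which 32.6 Mb lay within shared regions. The C4-2B list alone covered 27.3 Mb, of which 14.0 Mb lay within shared regions. The local background was higher in C4-2BER. As solved from the fold enrichments and p-values of weak narrow H3K27ac peaks, its median height was 6.62 fragments of pileup against 4.88 in C4-2B, and its part in these differences was not tested.

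Most line-specific regions lay away from promoters. A region counted as a TSS region when it reached within 1 kb of any annotated TSS of a protein-coding gene, which covers 4.09% of the genome. This held for 9.61% of C4-2BER-only regions (95% Wilson interval 9.26 to 9.97), 13.4% of C4-2B-only regions (12.9 to 13.9) and 36.2% of shared regions. The intervals cover counting error only. Most of these starts were alternative ones, since with 1 TSS per gene the shares fell to 1.77% and 2.27%. The median distance from a region's centre to the nearest such TSS was 16207 bp for C4-2BER-only, 12306 bp for C4-2B-only and 7052 bp for shared regions.

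Within genes the classes split by position. Later introns held 31.4% of C4-2BER-only and 32.9% of C4-2B-only regions, first introns 11.6% and 10.8%, and exons 2.75% and 4.81%. Intergenic sequence held 39.6% of C4-2BER-only against 34.3% of C4-2B-only regions, and covers 57.3% of the genome. Seen the other way, C4-2BER-only regions made up 50.8% of line-specific regions at a TSS, 45.1% in exons, 60.7% in first introns and 62.3% between genes. No protein-coding gene lay within 50 kb of 17.8% of C4-2BER-only and 15.0% of C4-2B-only regions.

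GC content moved with these differences. The median GC content of the central 300 bases was 49.7% in C4-2BER-only, 54.7% in C4-2B-only and 52.7% in shared regions. Among line-specific regions with a GC content of 40 to 45%, 74.2% were C4-2BER only, and among those of at least 60% the share was 23.3%. Once regions were compared within a GC band, TSS and other regions lay close together. In the band of 50 to 55% the C4-2BER-only share was 62.7% at a TSS and 65.8% elsewhere, and at 60% or more it was 25.9% at a TSS and 22.6% elsewhere. The GC content of the libraries was not measured, so the part of GC in the promoter difference was not tested beyond these bands.

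**Figure D1:**
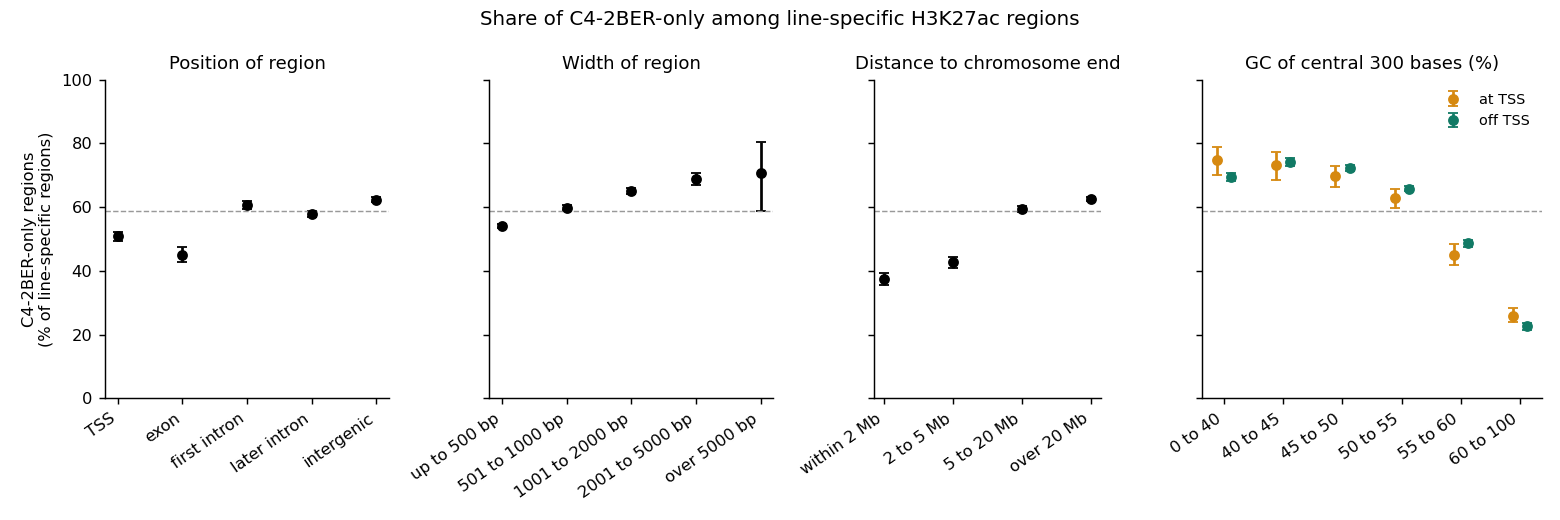
Share of C4-2BER-only regions among line-specific H3K27ac regions (y axis, percent), by position, width, distance to the chromosome end and GC content of the central 300 bases (x axes). Points are shares and bars 95% Wilson intervals, which cover counting error only, and the dashed line is the share over all line-specific regions, 58.9%. The share fell from 74.2% at a GC content of 40 to 45% to 23.3% at 60% or more, with points at and off a TSS close to each other.

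Line-specific regions of C4-2B gathered toward chromosome ends. The outer 5 Mb of the chromosomes, 7.77% of the genome, held 18.6% of C4-2B-only, 8.72% of C4-2BER-only and 12.8% of shared regions. The C4-2BER-only share of line-specific regions was 37.4% within 2 Mb of an end and 62.5% beyond 20 Mb. This step remained in GC bands, since at a GC content of 55 to 60% the share was 34.3% (31.5 to 37.2) within 5 Mb of an end and 50.5% (49.3 to 51.8) elsewhere. At 45 to 50% the shares were 63.4% (59.8 to 66.8) and 72.8% (71.8 to 73.7). Below 40% the shares were 70.9% and 69.8%, with overlapping intervals.

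Whole chromosomes differed in the same sense. The C4-2BER-only share was lowest on chromosome 19 at 46.5%, followed by chromosome 22 at 49.0% and chromosome 16 at 52.9%, and among chromosomes 1 to 22 and X it was highest on chromosome 5 at 64.6% and chromosome X at 68.3%. Chromosome Y, with 38 C4-2BER-only and 6 C4-2B-only regions, stood at 86.4% (73.3 to 93.6). Over chromosomes 1 to 22 and X (n = 23), which share libraries and base composition, it went with chromosome GC content at a Pearson r of -0.71 and a Spearman rho of -0.50. It went with the same share for H3K18ac, a second acetylation mark measured in other libraries of the same lines, at r = 0.87 and rho = 0.80.

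Line-specific regions of a class followed each other along the chromosomes. The next line-specific region was again C4-2BER only after 69.0% of C4-2BER-only regions, against a class share of 58.9%, and again C4-2B only after 55.5% of C4-2B-only regions, against 41.1%. Joining regions of a class across gaps of up to 12496 bp and no region of the other line between them gave 1212 C4-2BER-only clusters and 899 C4-2B-only clusters of at least 3 regions. These held 17.2% of C4-2BER-only and 18.6% of C4-2B-only regions. Among clusters of at least 10 regions, 14 were C4-2BER only and 6 were C4-2B only.

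In windows of 1 Mb with at least 20 line-specific regions, 134 of 904 had over 80% C4-2BER-only regions and 28 had under 20%. Of the 28 windows, 16 lay within 5 Mb of a chromosome end, compared with 3 of the 134 and 111 of all 904. The extreme window on chromosome 11, from 24 to 25 Mb, held 69 C4-2BER-only and 0 C4-2B-only regions. Over the 3 Mb around it the background height of C4-2BER, solved from H3K18ac peaks, was 1.96 times that of C4-2B, against 1.40 genome-wide. At the opposite extreme, chromosome 7 from 1 to 2 Mb held 3 C4-2BER-only and 41 C4-2B-only regions, with a background ratio of 1.42 over the surrounding 3 Mb. The ratio on chromosome 11 was above that of most such windows, with a median of 1.45 in the 134 windows over 80% and 1.43 in the 28 under 20%, and medians of 1.34 from 50 to 80% and 1.32 from 20 to 50%. Over chromosomes 1 to 22 and X (n = 23) the ratio went with the C4-2BER-only share at r = 0.52 and rho = 0.41. Copy number was not measured in these files.

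The C4-2B-only cluster with most sequence lay in FKBP5, a co-chaperone gene that is a textbook androgen-induced gene. It spanned chr6:35580356-35677937 and held 19 C4-2B-only regions of 277 to 4203 bp, 21870 bp in all. Fold enrichments in C4-2B ran from 2.26 to 8.58 with a median of 2.94. No C4-2BER-only region lay in the 150 kb around it. The FKBP5 promoter itself was shared and stood at 13.3 in C4-2BER against 25.2 in C4-2B. In H3K18ac the same span held 25716 bp of C4-2B peaks and 10254 bp of C4-2BER peaks. Of the 19 regions, 8 held the Alu letters.

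The next C4-2B-only clusters by sequence lay at ACADL, ACSL3, KCNMA1 and AFF3. At ACADL, which encodes the long-chain acyl-CoA dehydrogenase, chr2:210199844-210234625 held 5 regions and 16814 bp, and the largest was 7967 bp wide. The shared ACADL promoter stood at 5.66 in C4-2BER against 25.7 in C4-2B. H3K18ac peaks covered the ACADL cluster almost equally, 11021 bp in C4-2BER and 12100 bp in C4-2B. At ACSL3, which encodes a long-chain acyl-CoA synthetase, chr2:222864075-222930168 held 16 regions and 14406 bp. The other two lay in KCNMA1, a calcium-activated potassium channel gene, with 8 regions and 12978 bp, and in AFF3, a gene of the AFF family of transcription elongation factors, with 7 regions and 12249 bp. H3K18ac peaks of C4-2BER against C4-2B covered 7160 against 10743 bp at ACSL3, 18360 against 30279 bp at KCNMA1 and 6264 against 15361 bp at AFF3.

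The C4-2BER-only cluster with most sequence lay in COBL, an actin nucleator gene. It spanned chr7:51128664-51161443 and held 4 wide regions and 18736 bp, 155 to 188 kb downstream of the TSS. No C4-2B-only region lay in the 150 kb around it, and 5 shared regions did. H3K18ac peaks covered 23708 bp of the cluster in C4-2BER against 4079 bp in C4-2B.

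Clusters of many small C4-2BER-only regions lay in LUZP2, PRKD1 and LRBA. At LUZP2 19 regions covered 17168 bp of chr11:24738921-24855144, inside the chromosome 11 window with the raised background. At PRKD1, which encodes protein kinase D1, 25 regions covered 16430 bp, and at LRBA, a vesicle trafficking gene, 17 regions covered 15563 bp. The Alu letters were present in 7 of 19, 10 of 25 and 7 of 17 of these regions, and in 0 of 4 at COBL.

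**Figure D2:**
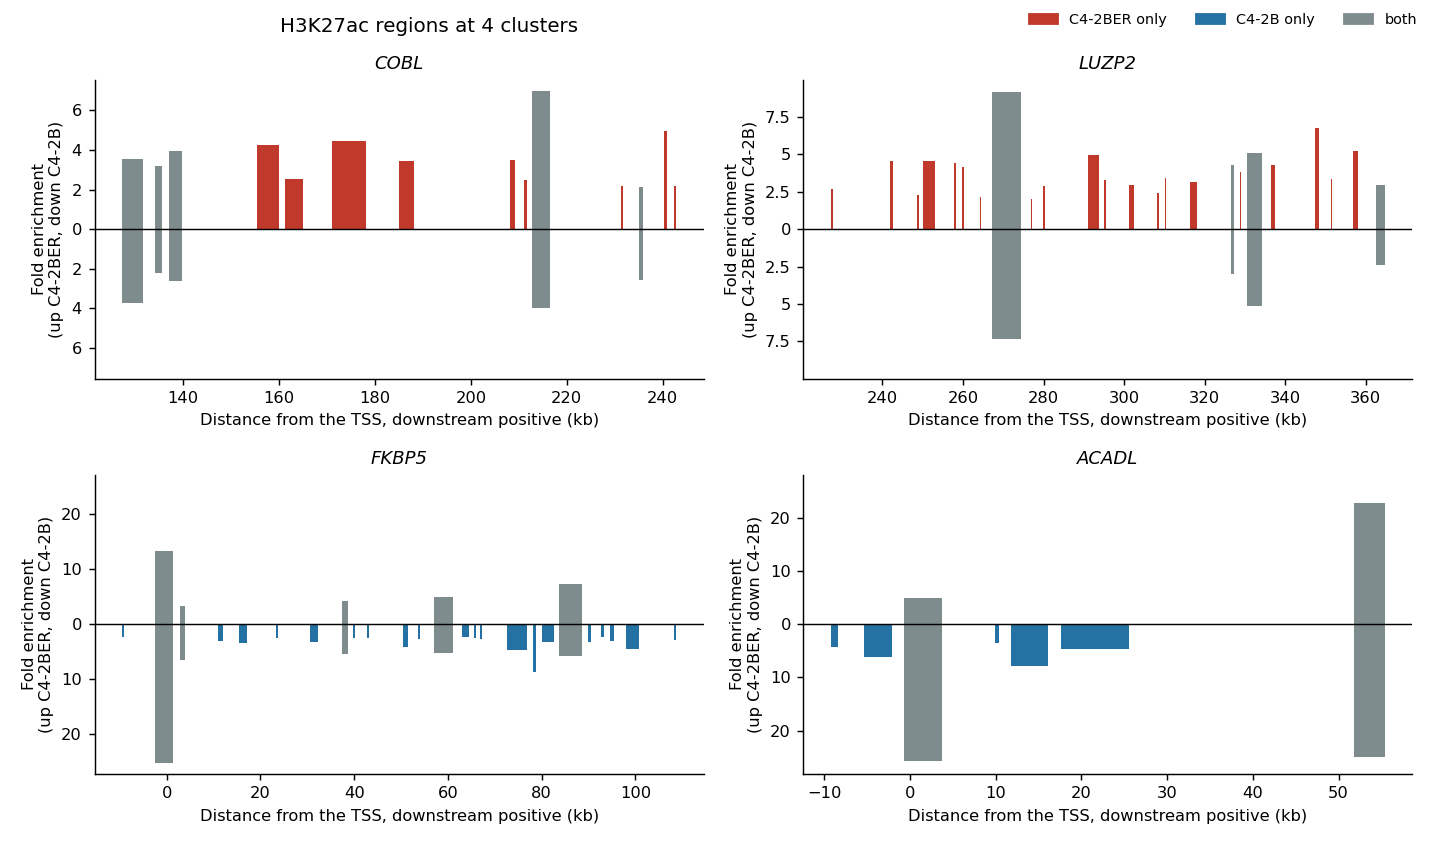
H3K27ac regions in 150 kb around 4 line-specific clusters, by distance from the TSS of the gene (x axis, kb, downstream positive). Bar height is the fold enrichment, upward in C4-2BER and downward in C4-2B, and bar colour the class of the region, with bars under 0.4 kb drawn at that width. LUZP2 held a cluster of 19 C4-2BER-only regions and FKBP5 a cluster of 19 C4-2B-only regions, while both FKBP5 and ACADL kept a shared promoter.

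Repeat letters were common in line-specific regions. Alu elements are short interspersed repeats of primates, present in a great many near-identical copies, so that short reads from them are hard to place. The letters CTGAGGCA on either strand were found in 7.52% of 300-base bins of the genome, 11.6% of shared, 17.0% of C4-2BER-only and 19.3% of C4-2B-only regions. Among C4-2B-only regions the share was 16.0% below a fold enrichment of 3 and 33.5% (28.8 to 38.6) at 6 or more. In C4-2BER-only regions the values were 16.4% and 21.3% (17.5 to 25.8), and in shared regions 13.5% and 9.26%. The letters were in 15 of the 45 C4-2B-only and 4 of the 18 C4-2BER-only regions at a fold enrichment of at least 10. The C4-2BER-only share of line-specific regions at a fold enrichment of at least 6 was 40.4% (33.8 to 47.4) with these letters and 55.8% (51.5 to 59.9) without them. Without all regions that held them, 21734 C4-2BER-only and 14728 C4-2B-only regions remained, and C4-2BER-only regions were 59.6% of line-specific regions against 58.9% before. The paper's methods kept reads with a mapping quality of at least 10 and removed duplicates. No other treatment of reads that map to several places is given there, and the effect of this filter on these regions was not tested.

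**Figure D3:**
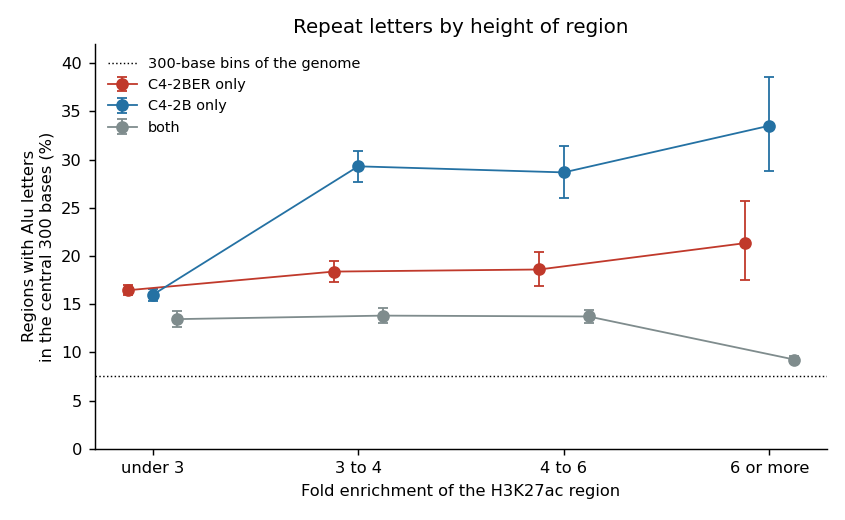
Share of H3K27ac regions with the letters CTGAGGCA on either strand in the central 300 bases (y axis, percent) by fold enrichment (x axis), for each class. Points are shares with 95% Wilson intervals, the fold enrichment of a shared region is the higher of both lines, and the dotted line is the share in 300-base bins of the genome, 7.52%. The C4-2B-only class reached 33.5% at a fold enrichment of 6 or more, against 21.3% for C4-2BER only and 9.26% for shared regions.

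Shares of regions with a short motif were compared over all regions and at matched GC content, among regions with a GC content of 40 to 50%. The forkhead motif, bound by factors such as FOXA1, was in 21.5% of C4-2BER-only, 16.6% of C4-2B-only and 20.02% of all regions. At matched GC content the shares were 23.4% (22.6 to 24.2) and 20.8% (19.5 to 22.2), both below the 24.6% of all regions in the band. The AP-1 motif was in 9.17% of C4-2BER-only, 6.81% of C4-2B-only and 7.91% of all regions. At matched GC content it was in 9.84% (9.26 to 10.4) and 8.43% (7.57 to 9.37), against 9.73% of all regions in the band, so the C4-2B-only share was the one below it. The E-box CAGCTG changed order, from 16.6% and 20.8% overall to 14.2% (13.5 to 14.9) and 11.8% (10.8 to 12.9) at matched GC content. The GC-rich SP and KLF motif was lower in the C4-2BER-only class, at 9.05% and 18.3% overall and at 4.52% and 6.96% at matched GC content, against 18.02% and 5.64% of all regions. The steroid receptor half-site was in 17.7% and 14.8% overall and in 19.5% and 18.6% at matched GC content, against 16.4% and 20.2% of all regions. For the Alu letters the gap was wider at matched GC content, 16.9% (16.1 to 17.6) of C4-2BER-only against 26.1% (24.7 to 27.5) of C4-2B-only regions.

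Line-specific bp were then summed within 50 kb of the TSS of 20033 protein-coding genes. Line-specific regions of both lines lay near 7875 genes, of C4-2BER alone near 5004, of C4-2B alone near 2985 and of neither near 4169. C4-2BER exceeded C4-2B by at least 3000 bp at 1868 genes, 9.32% of those examined, and C4-2B exceeded C4-2BER by as much at 1057 genes, 5.28%. Genes past this margin are said to be called for a line. The promoter was marked in both lines at 1466 of the 1868 and 836 of the 1057 genes, and at 13393 of all 20033 genes. Most called genes, like most genes, thus had a promoter that both lines marked. Of the 13393 genes, 10.9% were called for C4-2BER and 6.24% for C4-2B, near the shares of all genes. The order of the 2 counts was not stable, since with the 50000 highest-fold peaks of each line 1066 genes were called for C4-2BER and 1191 for C4-2B.

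H3K18ac sided with the C4-2B calls more than with the C4-2BER calls. Of genes called for C4-2B, 91.6% also had more line-specific H3K18ac sequence in C4-2B, as did 54.7% of all genes. Of genes called for C4-2BER, 56.2% had more H3K18ac sequence in C4-2BER, as did 39.7% of all genes.

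The genes with most C4-2BER-only sequence, taken over 100 kb apart, began with ATIC, a purine synthesis enzyme gene on chromosome 2 (TSS at 215312059). It had 16426 bp in 13 C4-2BER-only regions and 0 bp in C4-2B-only regions. EXOSC7, a subunit gene of the RNA exosome beside ZDHHC3, had 15891 bp against 803 bp. CHTF8, a clamp loader gene beside the hyaluronan synthase gene HAS3, had 14847 bp against 0 bp, and TANGO6 15585 bp against 1104 bp. These loci are marked at their promoters in both lines, and the fold enrichment there was lower in C4-2BER, as at ATIC with 13.0 against 18.9. This was the common order, since of 13393 genes with a TSS peak in both lines 11.8% had the higher promoter fold enrichment in C4-2BER, and the median ratio of C4-2BER to C4-2B was 0.702.

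Next among the C4-2BER loci, CFAP69, a cilium gene that lies next to the metalloreductase genes STEAP1 and STEAP2, had 14343 bp in 9 C4-2BER-only regions. SLC30A4, a zinc transporter gene, had 13865 bp in 6 regions. C1QTNF3, next to AMACR, an enzyme gene of branched fatty acid oxidation that is used as a prostate cancer marker, had 13090 bp in 8 regions and no TSS peak of its own. None of these 3 had C4-2B-only sequence. TMEM140 had 14408 bp and was unusual in its promoter, which stood at 7.41 in C4-2BER against 2.87 in C4-2B. FKBP1A, an immunophilin gene, had 13820 bp, ST7 13529 bp, KCNRG, a potassium channel regulator gene beside TRIM13, 12749 bp and TMC7 12706 bp.

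The C4-2B loci began with PTX4, a pentraxin gene on chromosome 16 (TSS at 1488944) beside the lysosomal transporter gene CLCN7. It had 21389 bp in 12 C4-2B-only regions against 338 bp in C4-2BER-only regions. ACADL had 16814 bp against 0 bp and MICALL2 15657 bp against 0 bp. FGFR3, a receptor tyrosine kinase gene for fibroblast growth factors, had 14448 bp in 12 regions against 0 bp, and its promoter stood at 6.07 in C4-2BER against 17.4 in C4-2B. STK39, a kinase gene of ion transport, had 12714 bp in 15 regions, and OCA2, a melanosome transporter gene without a TSS peak in either line, had 15071 bp against 2436 bp.

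ENSG00000288716, which starts beside the ubiquitin ligase gene MYCBP2, had 11702 bp in 9 C4-2B-only regions, and DCAF15, a substrate receptor gene of a ubiquitin ligase, had 11624 bp in 11. Neither had C4-2BER-only sequence. MTG2, a mitochondrial GTPase gene, had 13292 bp against 926 bp, and THAP4 12171 bp against 569 bp. PLCH2, a phospholipase C gene beside HES5, had 11470 bp, and ACSL3 had 11980 bp against 669 bp. PTX4, MICALL2, FGFR3, MTG2, THAP4 and PLCH2 start within 5 Mb of a chromosome end, where C4-2B-only regions gathered. Among the C4-2BER loci only FKBP1A does. MTG2 was the only one of the 24 loci that changed direction under an alternative, to 340 bp more in C4-2BER when only peaks with a fold enrichment of at least 4, or a −log10 q-value of at least 5, were kept. Other loci lost their difference. At the fold minimum CHTF8, TANGO6, KCNRG, MICALL2, OCA2, DCAF15 and THAP4 had a difference of 0 bp. PTX4 fell to -2890 bp under both minima, short of the margin for a call. Of the 24 loci, 14 stayed called at the fold minimum and 18 at the q minimum. In H3K18ac all 12 C4-2B loci and 11 of 12 C4-2BER loci had the same direction, with CHTF8 the exception. By the margin of 3000 bp, 10 of the 12 C4-2B and 9 of the 12 C4-2BER loci did.

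**Figure D4:**
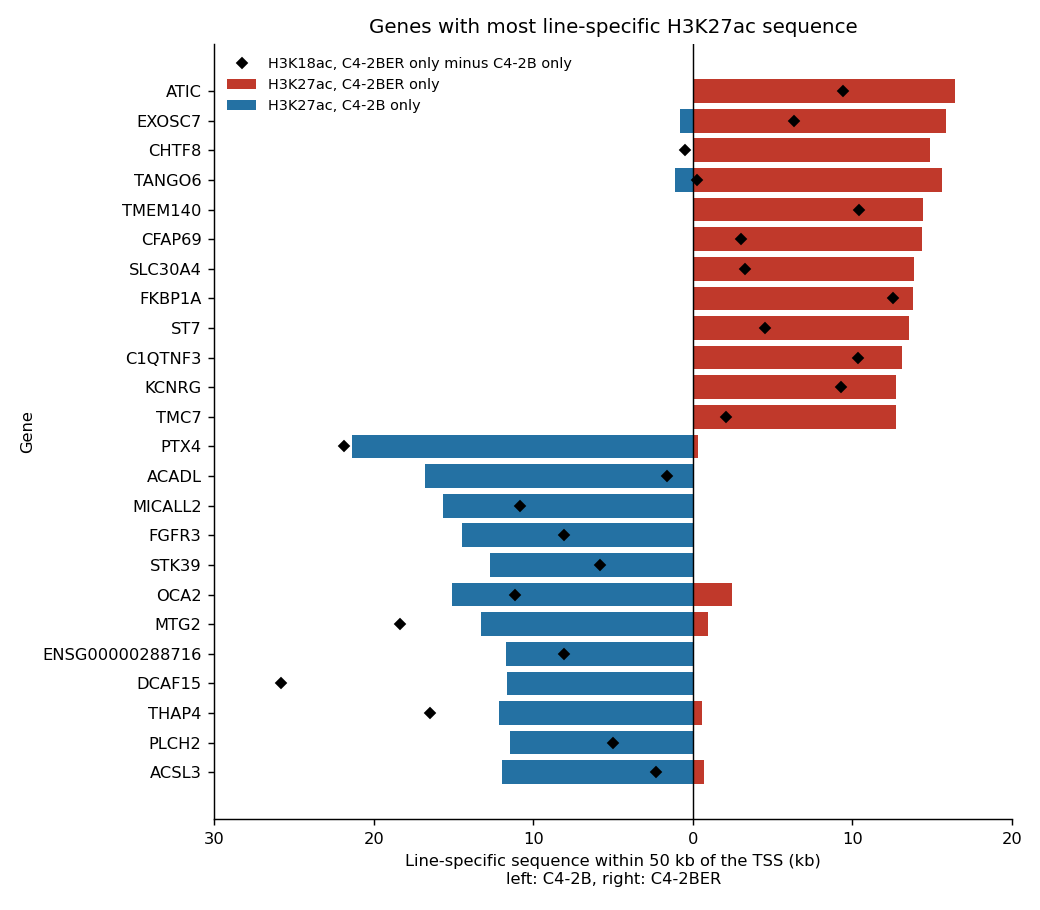
Line-specific H3K27ac sequence within 50 kb of the TSS (x axis, kb) at the 12 loci per line with the largest difference (y axis). Bars to the right are C4-2BER-only and to the left C4-2B-only H3K27ac sequence, and diamonds the H3K18ac difference, C4-2BER only minus C4-2B only. ATIC leads the C4-2BER loci with 16426 bp and PTX4 the C4-2B loci with 21389 bp, and the H3K18ac diamond lies on the side of the H3K27ac bar except at CHTF8.

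Androgen-responsive genes were the list with most C4-2B calls. Of 29 such genes, 6 (20.7%) were called for C4-2B and 2 (6.90%) for C4-2BER, beside 5.28% and 9.32% of all genes. More genes leaned to C4-2B than to C4-2BER, since 19 had more C4-2B-only and 7 more C4-2BER-only sequence, and the median of C4-2BER minus C4-2B was -818 bp, against 0 bp over all genes. PMEPA1, a membrane protein gene of TGF-beta signalling, had 9495 bp against 0 bp in 2 C4-2B-only regions. ELL2, an elongation factor gene, had 7232 bp against 0 bp in 7 regions and a promoter of 13.8 in C4-2BER against 23.2 in C4-2B, where the median ratio over all such promoters was 0.702. The remaining calls for C4-2B were FKBP5, with 5649 bp against 0 bp, and ZBTB10, UAP1 and ADAM7. STEAP2, with 13718 bp against 0 bp, and ACP3, the prostatic acid phosphatase gene, with 7365 bp against 0 bp, were called for C4-2BER. The STEAP2 regions of 7539, 3632 and 1369 bp also reach the window of CFAP69, so these 2 calls are not independent. The kallikrein genes KLK3, with 0 bp against 1247 bp, and KLK2, with 886 bp against 1247 bp, were not called. In H3K18ac the difference, C4-2BER minus C4-2B, was only -321 bp at PMEPA1 and -38 bp at ELL2. At STEAP2 and ACP3 it was 3096 and 7703 bp.

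Luminal epithelial genes had 5 calls for C4-2BER and 1 for C4-2B among 20, beside 9.32% and 5.28% of all genes. The keratin genes KRT18 and KRT8 share a locus and had 4624 and 4424 bp of C4-2BER-only sequence, against 233 bp of C4-2B-only sequence each, and ELF3, an epithelial transcription factor gene, had 4229 bp against 0 bp. GATA3 was the list's call for C4-2B, with 3474 bp. Housekeeping genes had a like share of C4-2BER calls, 5 of 18, with TUBB at 5469 bp and TFRC at 5114 bp against 818 bp, and 1 call for C4-2B. The luminal share, 5 of 20, was thus no larger than the housekeeping share.

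Of 20 neuroendocrine regulators 0 were called for C4-2BER, beside 9.32% of all genes, and their largest difference toward C4-2BER was 2930 bp. HES6 was the 1 call for C4-2B, with 6125 bp against 0 bp, a share of 5.00% beside 5.28% of all genes. HES6 also starts within 5 Mb of a chromosome end. Among 24 neuroendocrine markers and secretory granule genes 3 were called for C4-2BER and 0 for C4-2B, near the shares of all genes. VGF, a neuropeptide precursor gene, had 4736 bp against 233 bp, DLL3, an inhibitory Notch ligand gene, had 4024 bp against 535 bp, and CHRNB2, a nicotinic receptor subunit gene, had 5276 bp against 1912 bp. At VGF and DLL3 H3K18ac went the other way, by 4999 and 2089 bp toward C4-2B.

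Among 33 neural adhesion and axon guidance genes 3 were called for C4-2BER, near the share of all genes, and 0 for C4-2B. SEMA3C, a secreted semaphorin gene, had 6576 bp in 9 regions against 0 bp, and NCAM2, a neural adhesion gene, 6753 bp against 294 bp. DAB1, an adaptor gene of reelin signalling, had 3643 bp against 0 bp and held the most enriched C4-2BER-only region, 3322 bp wide with a fold enrichment of 15.9. Its nearest C4-2B peak was 508738 bp away. The next in height lay in an intron of SEMA5A, a semaphorin gene, at 15.4. All 9 HOXC genes were called for C4-2BER, which is 23.1% of 39 HOX genes beside 9.32% of all genes. For C4-2B 0 HOX genes were called, beside 5.28% of all genes. The other HOX genes had no call. The median difference of the list was 0 bp, with 16 genes leaning to C4-2BER and 14 to C4-2B. The HOXC genes lie within each other's windows, so these 9 calls rest on the same few regions, of which 7 lay near HOXC8 with 6353 bp, and H3K18ac there had 0 line-specific bp.

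Growth factor receptor and Notch pathway genes had more calls for C4-2B than for C4-2BER, with median differences of 0 and 0.5 bp. Growth factor receptor genes had 4 calls for C4-2B (14.3%) and 0 for C4-2BER among 28, beside 5.28% and 9.32% of all genes. Among the 4 were FGFR3 and IGF1R, the latter at 7317 bp against 1109 bp and with promoter fold enrichments of 12.4 in C4-2BER against 37.4 in C4-2B. RET and DDR2 were the other 2. Notch pathway genes had 4 calls for C4-2B, NOTCH1, HES4, HES5 and RFNG, and 2 for C4-2BER, DLL3 and MAML3, a coactivator gene, among 24, which is 16.7% and 8.33%. NOTCH1, the receptor gene, had 5040 bp against 346 bp and HES5, a target repressor gene, 5441 bp against 0 bp. The HES5 regions of 836, 1515, 729 and 2086 bp are also counted at PLCH2. HES4, HES5, NOTCH1 and RFNG lie near chromosome ends, where C4-2B-only regions gathered, and so do FGFR3 and IGF1R. Among 22 basal and mesenchymal genes 1 (4.55%) was called for each line, CD44, a hyaluronan receptor gene, for C4-2BER and KRT15 for C4-2B. Of 10 blood cell genes SPI1 alone was called, for C4-2B, which is 10% beside 5.28% of all genes.

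**Figure D5:**
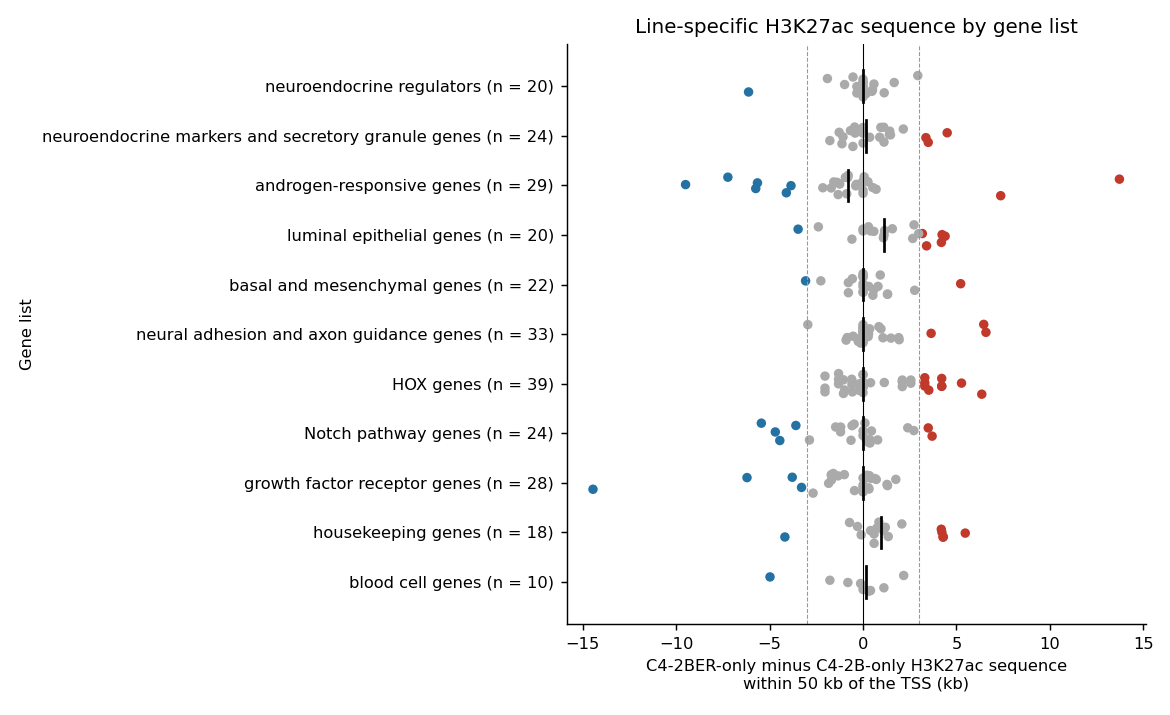
Difference in line-specific H3K27ac sequence within 50 kb of the TSS, C4-2BER only minus C4-2B only (x axis, kb), for each gene of 11 lists (y axis). Points are genes, coloured red when called for C4-2BER and blue for C4-2B at the margin of 3000 bp (dashed lines), and black bars are medians. Androgen-responsive genes have 6 genes called for C4-2B and a median of -818 bp, and the 20 neuroendocrine regulators have 0 called for C4-2BER.

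The most enriched C4-2B-only region lay at GRIN3A, an NMDA receptor subunit gene, at a fold enrichment of 29.9 and 180837 bp from any C4-2BER peak. The next lay in gene-poor sequence of chromosome 13 at 19.1 and of chromosome 14 at 17.6, the latter 630970 bp from the TSS of STXBP6. Each of the 5 most enriched C4-2B-only regions overlapped an H3K18ac peak in both lines, as did the DAB1, SEMA5A and ADD2 regions among the 5 of C4-2BER. More widely, 59.9% of C4-2BER-only regions overlapped an H3K18ac peak of C4-2B and 62.1% of C4-2B-only regions one of C4-2BER. Where H3K18ac was present in C4-2BER only, 7911 line-specific H3K27ac regions were C4-2BER only and 299 C4-2B only. Where it was present in C4-2B only, 983 were C4-2BER only and 5114 C4-2B only.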

How the data were processed

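ChIP-seq of H3K27ac and H3K18ac (2 libraries per mark and line) and input (1 per line) was deposited as 1 broad peak list per mark and line, with replicates merged by the authors. The authors called peaks with macs2. Per the labels' processing notes of the submitters, bcl2fastq 2.17, Trimmomatic 0.33, Bowtie2 2.2.3, Picard and deepTools were used on hg38. The macs2 version, its settings and the use of input are not given in the sources used here. The lists hold, as deposited by the authors, the fold enrichment (a ratio of pileup to local background), −log10 p-value, −log10 q-value and a display score per peak. Read depth is unknown, and with pooled lists of peaks no test between the lines was made.

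An overlap of 1 bp was enough to merge peaks, which lay on chromosomes 1 to 22, X and Y. The fold enrichment of a region is the mean of its peaks weighted by width. No peak passed a chromosome end of the reference (hg38), and GENCODE 44 protein-coding genes gave the TSS. H3K18ac lists were treated in the same way. Background height was solved from peaks under 500 bp with a −log10 p-value under 8. Python 3.11.15, numpy 2.4.6, pandas 2.3.3, pysam 0.24.0 and samtools 1.23.1 were used, and the interval steps were tested on simulated lists. Alternatives were a minimum fold enrichment of 4, a −log10 q-value of 5, 50% shared bp, joining at 1000 bp, 50000 peaks per line, 1 TSS per gene, other gene windows and, chosen after seeing the data, leaving out regions with the Alu letters. Members and lists were chosen with earlier results of these data known.

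Named were, per line, the 12 loci with the largest difference whose TSS lay over 100 kb apart, the 5 most enriched regions, the 5 clusters with most sequence and up to 2 called genes per list and direction. CHRNB2, KRT8, KLK3, KLK2, the further called list genes and the neighbours of loci were named after their values were seen. Of these, 1 cluster and some marker and list genes are not reported here.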

Additional observations from a re-analysis of the deposited data

How the results depend on the processing

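No paired analysis was possible because the replicates were pooled before peak calling, and for the same reason leaving out a replicate was not possible. C4-2BER-only regions outnumbered C4-2B-only regions under every alternative run. The counts were 6684 and 5452 at a fold enrichment of at least 4, 13098 and 5461 at a −log10 q-value of at least 5, and 14455 and 12298 with 50000 peaks per line. Shares at a TSS moved to 11.2% for C4-2BER only at the fold minimum, 10.8% for C4-2B only at the q minimum, 8.56% for C4-2BER only with equal lists, 9.24% and 12.8% when peaks up to 1000 bp apart were joined, 1.77% and 2.27% with 1 TSS per gene, and 14.7% for C4-2B only without the Alu letters, the last chosen after seeing the data. The share stayed higher in the C4-2B-only class throughout. The next region was of the same class for 64.7% and 56.8% at the fold minimum, 77.5% and 46.0% at the q minimum, 65.7% and 59.7% with equal lists and 71.0% for C4-2BER only with joining, each above the class share. Genes called for C4-2BER and C4-2B were 736 and 477 within 25 kb, 2950 and 1442 around gene bodies, 6029 and 1504 with all bp covered by 1 list only and 640 and 417 at 5000 bp. They were 1645 and 423 at the q minimum and 1066 and 1191 with equal lists, where the order turned. Of the 24 named loci, MTG2 turned to 340 bp toward C4-2BER at the fold minimum and at the q minimum, and 7 and 3 loci had a difference of 0 bp under these. The causes were not tested. With 1 list per line and no depth, neither replicate spread nor the limit of detection is known.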
